A study of Rattus norvegicus with 22 samples.

Results

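The genes described here are 8 transcripts by which pericentral hepatocytes, the liver cells around the central vein, are commonly recognised, namely Glul, Oat, Slc1a2, Cyp2e1, Cyp1a2, Rhbg, Axin2 and Tbx3. They were chosen by symbol from a table of 14971 genes measured by RNA sequencing in 22 rat livers, and all 8 were among the 12424 genes with a mean normalised read count of at least 10 that were tested. The study crossed surgery with exposure. Rats of 12 weeks had sham surgery or a hepatic vagotomy, in which the vagal branch to the liver is severed, recovered for 5 to 6 days, were then placed for 4 hours in air or in ozone at 1 ppm, on either 1 day or 2 days, and were necropsied no later than 2 hours afterwards. The 4 groups were sham air (n = 5 libraries), vagotomised air (n = 6), sham ozone (n = 6) and vagotomised ozone (n = 5). All rats had an operation, so no group is unoperated. The labels give no strain, sex or genotype and do not say which libraries came from 1 and which from 2 days of exposure, so the number of days could not be entered in any fit. RNA came from a piece of 10 to 20 mg of liver from a similar location, without separation of zones, so that in this bulk RNA fewer pericentral cells and less RNA per cell cannot be told apart.

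Hepatocytes along the liver lobule divide their work between the portal end, where blood enters, and the central end, where it leaves. WNT ligands and R-spondin made by endothelial cells of the central vein keep beta-catenin active in the neighbouring hepatocytes, which turns on the pericentral programme together with factors such as TCF7L2. These cells take up the ammonia that periportal urea synthesis has left over and fix it in glutamine, and they hold much of the liver's cytochrome P450. Among the genes here, Glul encodes glutamine synthetase, Rhbg an ammonia channel, Slc1a2 a glutamate transporter and Oat ornithine aminotransferase, which makes glutamate from ornithine. Cyp2e1 and Cyp1a2 encode cytochrome P450 enzymes of ethanol, solvent and arylamine metabolism. Axin2 is a feedback inhibitor of WNT signalling and a widely used readout of it, and Tbx3 is a transcription factor of the T-box family that responds to WNT signals.

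Because beta-catenin acts on DNA through TCF and LEF proteins, the promoter sequences in RefSeq (rat build GRCr8) were searched for the core letters CTTTGA of their binding site, on both strands, in the 250 bases before each annotated start. Of the 8 genes 7 had an entry, with 9 windows in all, and 5 windows in 5 genes held the core, whereas 13.9% of the 33469 promoter windows of that length did. Axin2 is shown because it held the core at 2 places, and Cyp2e1, Cyp1a2 and Glul because each has 1, in Glul on the other strand, where it reads TCAAAG. Capitals mark the core, and each sequence is written in the direction of its gene.

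Axin2: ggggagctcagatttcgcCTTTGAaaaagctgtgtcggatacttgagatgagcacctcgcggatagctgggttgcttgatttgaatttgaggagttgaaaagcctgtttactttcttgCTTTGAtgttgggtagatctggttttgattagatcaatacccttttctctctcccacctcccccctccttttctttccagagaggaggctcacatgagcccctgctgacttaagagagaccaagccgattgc
Cyp2e1: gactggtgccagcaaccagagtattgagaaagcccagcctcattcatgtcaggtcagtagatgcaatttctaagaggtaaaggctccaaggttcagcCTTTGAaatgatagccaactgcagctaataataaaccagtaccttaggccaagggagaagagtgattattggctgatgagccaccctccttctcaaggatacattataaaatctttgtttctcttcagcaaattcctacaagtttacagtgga
Cyp1a2: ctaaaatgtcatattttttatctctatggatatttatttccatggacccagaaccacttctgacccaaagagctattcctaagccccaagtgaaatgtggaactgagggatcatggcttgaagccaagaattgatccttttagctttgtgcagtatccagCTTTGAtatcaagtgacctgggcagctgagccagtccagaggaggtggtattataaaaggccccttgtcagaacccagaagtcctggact
Glul: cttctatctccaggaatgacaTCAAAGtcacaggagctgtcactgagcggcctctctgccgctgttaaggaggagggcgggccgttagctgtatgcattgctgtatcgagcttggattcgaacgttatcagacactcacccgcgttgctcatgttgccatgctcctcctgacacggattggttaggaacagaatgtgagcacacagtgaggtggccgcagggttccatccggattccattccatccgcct

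These windows lie at chr10:94398535-94398784 (plus strand), chr1:205269717-205269966 (plus), chr8:66978150-66978399 (minus) and chr13:68519250-68519499 (plus), in that order, and each ends 1 base before an annotated start of its gene. The Axin2 cores lie at -232 to -227 and at -132 to -127 from the start, the Cyp2e1 core at -153 to -148, the Cyp1a2 core at -90 to -85 and the Glul core at -229 to -224. The other Glul window, at chr13:68575816-68576065 (plus), held no core. Slc1a2 held 2 cores in 1 of its 2 windows, while no match was found in the windows of Oat and Rhbg. The core AGAACA of the glucocorticoid receptor's half-site stood in 1 member window, of Slc1a2, against 17.5% of all windows, and the core GCGTG bound by the aryl hydrocarbon receptor, a known inducer of Cyp1a2, also in 1, of Slc1a2, against 25.9%. Such matches are short runs of letters and were not tested for binding.

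The libraries held 14098863 to 21141337 reads assigned to genes. Sums over 8 general hepatocyte markers ran from 2527000 to 2754000 normalised counts in sham air and from 2406000 to 3187000 in vagotomised air. In ozone they ran from 2209000 to 3065000 in sham and from 2227000 to 2978000 in vagotomised rats. Libraries 1 and 5 of vagotomised air, library 3 of sham ozone and library 1 of vagotomised ozone had 5.8S ribosomal RNA counts under 200, and results were also computed without these 4. The limit of 200 was a set value, and their counts ran up to 179.5, with the next at 342 in vagotomised air library 2. The 6 listed marker genes of leukocytes summed to 165 to 224 in sham air and to 114 to 153 in sham ozone, and 1 of the 3 that could be tested, Ptprc, fell in sham rats. In the same comparison 2 of 7 Kupffer cell markers fell, Cd5l by 0.52 (SE 0.18) and Cd68 by 0.64 (SE 0.24), and of 7 stellate cell markers Pdgfrb fell by 0.87 (SE 0.22) and Dcn rose by 1.27 ± 0.35. Over all tested genes 28.4% rose or fell there, so these marker counts are near that background and are not a result about the cell types. The summed Kupffer and stellate markers overlapped between the sham groups, at 5326 to 6667 and 1682 to 2839 in air and 4197 to 6770 and 1308 to 2279 in ozone. The T cell gene Cd3e and the neutrophil gene S100a8 were below the minimum. The sums for endothelium of the central vein, 516 to 761 in sham air and 466 to 807 in sham ozone, overlapped. Of its 6 marker genes 1 fell in sham rats, Rspo3, by 0.49 (SE 0.18), and the list median was -0.37. The WNT ligand genes Wnt2 and Wnt9b did not pass, at -0.48 (SE 0.275) and -0.265 (SE 0.337), with mean counts of 19.78 and 16.95. These genes were named after their values were seen. In vagotomised rats the leukocyte sums overlapped, at 147.6 to 185.5 in air and 89.64 to 229.5 in ozone. No leukocyte, Kupffer, stellate or central endothelium marker passed there. Of 8 hepatocyte markers Fgb fell by 0.47 (SE 0.10) and Apoa1 rose by 0.37 ± 0.13. Of 5 sinusoidal endothelium markers Lyve1 rose by 0.51 ± 0.14. Over all tested genes 21.1% passed, and these genes were named after their values were seen. The part of any of these markers in the changes below was not tested.

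**Figure D1:**
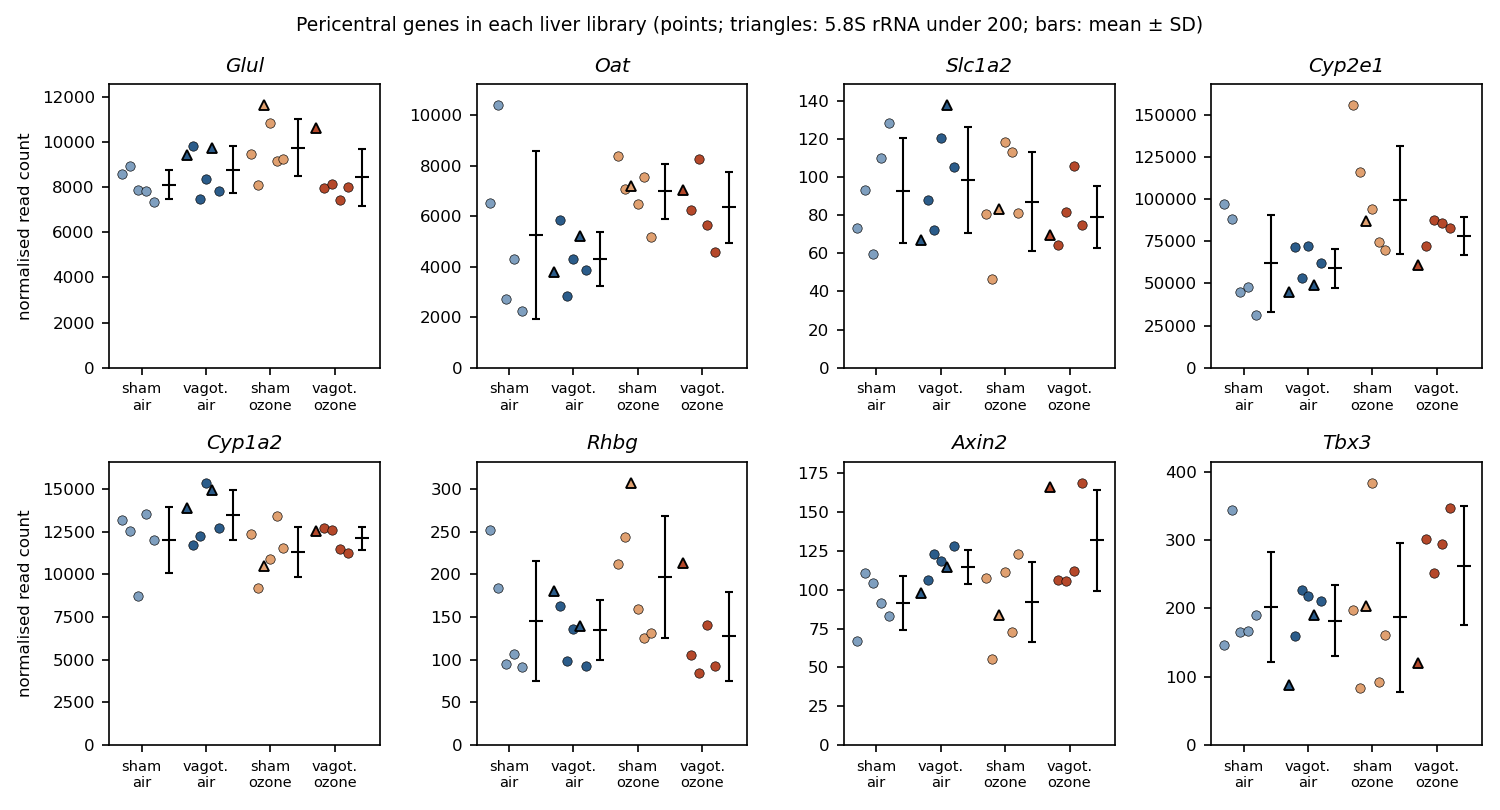
Normalised read counts (vertical axes, from 0) of the 8 pericentral genes in each of the 22 libraries, by group, with the mean and SD beside the points; triangles are the 4 libraries with 5.8S ribosomal RNA under 200. Cyp2e1 lay between 31547 and 97285 in sham air and between 70162 and 155610 in sham ozone, and the ranges of air and ozone overlap for all 8 genes.

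Ozone against air in sham rats asks how the exposure changed these genes in a liver with its vagal supply. Of the 8 genes 1 rose, Cyp2e1, and none fell, whereas 28.4% of all tested genes passed the test. For none of the 8 were the sham air and sham ozone ranges separate, which held for 15.4% of all genes. The median log2 change of the 8 was 0.12, beside 0.01 over all genes. Rose and fell are used only of genes with an adjusted p (limma, Benjamini-Hochberg over all tested genes) under 0.05, and changes are log2 fold changes of normalised counts with their standard error.

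Cyp2e1 was the most abundant of the 8 in normalised counts, which are not corrected for transcript length. Its counts in sham air were 97285, 88211, 44676, 48178 and 31547 in libraries 1 to 5, and in sham ozone they ran from 70162 over a median of 90810 to 155610. Libraries 1 and 2 of sham air thus reached into the ozone range, while the other 3 lay below every ozone library. The rise was 0.76 ± 0.24, or 1.69-fold (95% confidence interval 1.20 to 2.40, adjusted p = 0.0215). The call depended on single libraries, since the adjusted p was 0.0618, 0.0557 and 0.0882 without sham air library 3, 4 or 5 and 0.0594 without sham ozone library 1, with changes from 0.55 to 0.70. It was also lost after quantile normalisation (0.051) and when only the sham groups were fitted (0.0628).

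The other cytochrome P450 gene, Cyp1a2, did not pass the test. It stood at 13170, 12551, 8758, 13560 and 12030 in sham air and at 9182 to 13437 with a median of 11230 in sham ozone. All sham ozone values lay inside the sham air range. The change was -0.08 ± 0.11 (adjusted p = 0.639) with an interval of -0.31 to 0.15, which leaves out a rise of the size estimated for Cyp2e1, although the difference between the genes was not itself tested.

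Among the genes that handle ammonia and glutamate, Oat had the widest spread in the controls. Its sham air counts were 6523, 10380, 2738, 4301 and 2236, a coefficient of variation of 63.5%, against 15.5% in sham ozone, where counts ran from 5168 over a median of 7143 to 8378. Library 2 of sham air was the highest of all 22, and 3 of the other 4 sham air libraries lay below every sham ozone library. The change of 0.63 ± 0.28 missed the threshold (adjusted p = 0.095), and without sham air library 2 it was 0.93 (adjusted p = 0.00626). Without sham air library 5 it was 0.38 (adjusted p = 0.317), and edgeR and DESeq2 gave 0.40 and 0.41 (adjusted p = 0.298 and 0.27).

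Glul counts in sham air were tight, at 8559, 8934, 7855, 7841 and 7326, and in sham ozone they ran from 8094 over a median of 9352 to 11603. The highest sham ozone value came from library 3, which is low in 5.8S ribosomal RNA. The change was 0.26 ± 0.11 (adjusted p = 0.0767, interval 0.04 to 0.48), and 0.20 (adjusted p = 0.0748) without the low 5.8S libraries. It passed the threshold without sham ozone library 2 (0.31, adjusted p = 0.0376) and with 5.8S as a covariate (0.22, adjusted p = 0.0184). With other scalings it was smaller, at 0.15 (adjusted p = 0.363) with equal column totals and 0.11 (adjusted p = 0.523) after quantile normalisation.

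Rhbg, the ammonia channel, had sham air counts of 252, 183, 94.8, 107 and 91.3, with the same libraries 1 and 2 on top as for Cyp2e1. In sham ozone it ran from 125 over a median of 186 to 307, the last again in library 3. Its change of 0.47 ± 0.29 did not pass (adjusted p = 0.232, interval -0.12 to 1.07). Slc1a2, the glutamate transporter, was a low transcript at 42 to 157 reads per library. It had 73.2, 93.2, 59.5, 110 and 128 normalised counts in sham air and 46.4 to 118 in sham ozone, a change of -0.10 ± 0.23 (adjusted p = 0.79, interval -0.58 to 0.38).

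The WNT readout Axin2 stood at 66.9, 111, 104, 91.7 and 83.1 in sham air and at 55.2 to 123, with a median of 95.8, in sham ozone. The sham ozone range enclosed that of sham air, and the change was -0.02 ± 0.19 (adjusted p = 0.962, interval -0.40 to 0.37). Tbx3 had 146, 344, 165, 167 and 190 in sham air, where library 2 stood alone, and 82.8 to 384 in sham ozone. Its change was -0.23 ± 0.34 (adjusted p = 0.648), with an interval from -0.94 to 0.47 that covers sizeable changes either way.

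**Figure D2:**
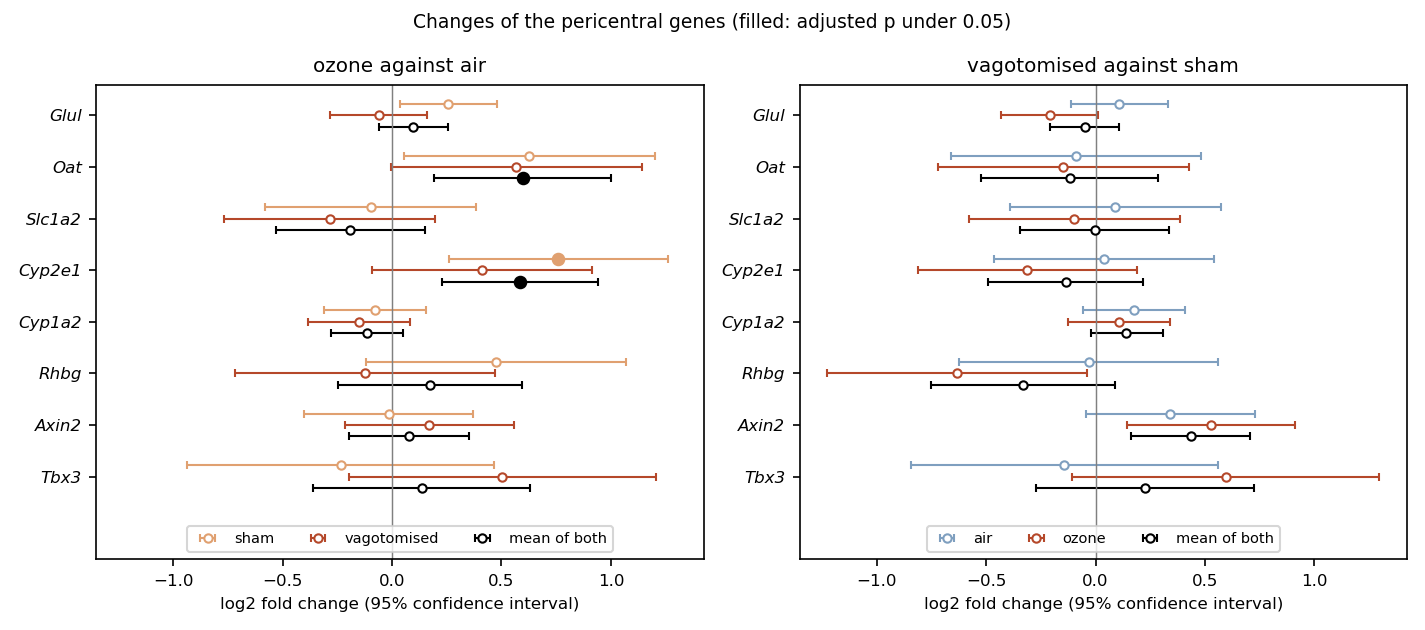
Log2 fold changes (horizontal axes) of the 8 genes with 95% confidence intervals, ozone against air at left and vagotomised against sham at right, in each group and averaged; filled points passed an adjusted p of 0.05. Only Cyp2e1 in sham rats (0.76) and the averaged ozone changes of Cyp2e1 (0.59) and Oat (0.60) are filled, and no vagotomy change is.

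In vagotomised rats, where the same exposure was compared without the hepatic vagal branch, 0 of the 8 genes passed the test with n = 5 ozone and 6 air libraries, whereas 21.1% of all genes did. edgeR and DESeq2 on read counts recovered from the table also called 0 of the 8, and 0 had an unadjusted p under 0.05. Ranges were separate for none of the 8 and for 11.7% of all genes. The median change of the 8 was 0.06, beside -0.01 over all genes.

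Oat came closest. It ran from 2856 over a median of 4089 to 5843 in vagotomised air and stood at 7033, 6246, 8281, 5638 and 4582 in vagotomised ozone. Of these ozone libraries 3 lay above every air library. The change of 0.57 ± 0.28 (adjusted p = 0.158) was near that in sham rats, and it passed when only the vagotomised groups were fitted (adjusted p = 0.044).

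Cyp2e1 ran from 45074 over a median of 57980 to 72438 in vagotomised air and stood at 61170, 71970, 87801, 86113 and 82942 in vagotomised ozone. The lowest ozone value was that of library 1, low in 5.8S, and 3 libraries lay above every air library. The change was 0.41 ± 0.24 (adjusted p = 0.255, interval -0.09 to 0.91). Cyp1a2 kept to 11254 to 12723 in vagotomised ozone against 11733 to 15373 in vagotomised air, a change of -0.15 ± 0.11 (adjusted p = 0.392).

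Glul ran from 7465 over a median of 8889 to 9819 in vagotomised air, and its vagotomised ozone counts were 10611, 7969, 8110, 7405 and 8016. Library 1 stood well above the other 4, of which 3 lay within the air range and library 4 just below it. The change was -0.06 ± 0.11 (adjusted p = 0.741). Rhbg showed the same high library 1, at 213 against 84.9 to 141 in the other 4, and 92.0 to 180 in vagotomised air, and its change was -0.12 ± 0.29 (adjusted p = 0.81). For Slc1a2 the change was -0.28 ± 0.23 (adjusted p = 0.437).

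Tbx3 counts were 120, 301, 251, 294 and 347 in vagotomised ozone and 88.5 to 227, with a median of 201, in vagotomised air. The low 5.8S library 1 was the lowest ozone library, the low 5.8S library 1 of vagotomised air the lowest there, and the other 4 ozone libraries lay above every air library. Vagotomised air library 5, also low in 5.8S, stood at 191. The lowest Tbx3 count of all 22 libraries, 82.8, was in sham ozone library 2, which had the highest 5.8S count, 3775. The change over all libraries was 0.50 ± 0.34 (adjusted p = 0.329), and without the low 5.8S libraries it was 0.55 (adjusted p = 0.269). Axin2 stood at 166, 107, 106, 112 and 169 in vagotomised ozone and at 97.8 to 128 in vagotomised air, a change of 0.17 ± 0.19 (adjusted p = 0.576).

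The difference between the ozone changes, vagotomised minus sham, tests whether surgery altered the response. It passed for none of the 8 genes and for 0% of all genes by limma, while 1147 genes had an unadjusted p under 0.05 and edgeR called 0 and DESeq2 20. For Glul it was -0.32 ± 0.15 (unadjusted p = 0.0468, adjusted p = 0.539), and for Cyp2e1 -0.35 ± 0.34 with an interval from -1.06 to 0.36 (adjusted p = 0.816). For Rhbg it was -0.60 ± 0.41 (adjusted p = 0.703) and for Tbx3 0.74 ± 0.48 (adjusted p = 0.687). For Oat it was -0.06 ± 0.39, with a wide interval from -0.87 to 0.75 (adjusted p = 0.981).

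Averaged over both surgery groups, a comparison added after the values were seen, ozone livers had more of 2 of the 8 transcripts and less of none, against 39.1% of all genes that passed. Cyp2e1 rose by 0.59 ± 0.17, or 1.5-fold (interval 1.17 to 1.92, adjusted p = 0.00894), and stayed past the threshold in every alternative run (adjusted p up to 0.0212). Oat rose by 0.60 ± 0.20, 1.51-fold (interval 1.14 to 2.00, adjusted p = 0.0182), but edgeR gave 0.47 with an adjusted p of 0.0599. Cyp1a2 was at -0.11 ± 0.08 (adjusted p = 0.274, but -0.22 and 0.0285 after quantile normalisation), Glul at 0.10 ± 0.08 (adjusted p = 0.328) and Axin2 at 0.08 ± 0.13 (adjusted p = 0.676). The interval of Axin2, from -0.20 to 0.35, covers changes of at most 1.27-fold upward.

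Vagotomy against sham in air asks what the nerve cut alone altered. No gene of the 8 passed, nor did any other, 0% of the genes tested, with 387 at an unadjusted p under 0.05 and 0 called by edgeR and by DESeq2. Separate ranges occurred in none of the 8 and in 0.346% of all genes. Axin2 had the largest change of the 8, 0.34 ± 0.19 (unadjusted p = 0.0796, adjusted p = 1). Of the 6 vagotomised air libraries 5, at 106 to 128, lay above 4 of the 5 sham air libraries, with sham air library 2 at 111 among them. The other 7 changes lay between -0.14 for Tbx3 and 0.18 for Cyp1a2.

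In ozone, vagotomised against sham, none of the 8 passed and 1.34% of all genes did. Ranges were separate for none of the 8 and for 2.12% of all genes. Axin2 again stood higher after vagotomy, with 166, 107, 106, 112 and 169 against 55.2 to 123, a change of 0.53 ± 0.19 (unadjusted p = 0.00943, adjusted p = 0.165, interval 0.14 to 0.91). Only libraries 1 and 5 of vagotomised ozone exceeded every sham ozone library. Rhbg was lower at -0.63 ± 0.29 (unadjusted p = 0.0382, adjusted p = 0.299), Tbx3 higher at 0.60 ± 0.34 (adjusted p = 0.432), Glul at -0.21 ± 0.11 (adjusted p = 0.368) and Cyp2e1 at -0.31 ± 0.24 (adjusted p = 0.601), all short of the threshold.

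The average over both exposures, likewise added after the values were seen, gave Axin2 a difference of 0.43 ± 0.13, 1.35-fold (interval 1.12 to 1.63, unadjusted p = 0.00312). The adjusted p was 0.225 and ranged from 0.108 to 0.43 over the alternatives, so the difference did not hold up over all genes. The means were 91.4 ± 17.4 (SD, n = 5) in sham air, 115 ± 11.1 (n = 6) in vagotomised air, 92.3 ± 25.8 (n = 6) in sham ozone and 132 ± 32.6 (n = 5) in vagotomised ozone. Both vagotomised means were thus above both sham means. By limma 0.113% of all genes passed in this comparison, among them none of the 8.

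Ordered by mean, Cyp2e1 went from vagotomised air (59100 ± 11610 SD) and sham air (61980 ± 28940) to vagotomised ozone (78000 ± 11250) and sham ozone (99650 ± 31880), and Oat followed the same order with 4315, 5236, 6356 and 6977. Neither the 2 air groups nor the 2 ozone groups differed past the threshold for either gene. Cyp1a2 had its highest mean in vagotomised air (13480 ± 1484) and its lowest in sham ozone (11320 ± 1483). Groups that differed in 1 factor did not differ past the threshold for Cyp1a2. For Glul the order ran from sham air (8103 ± 639) over vagotomised ozone (8422 ± 1254) and vagotomised air (8769 ± 1022) to sham ozone (9727 ± 1266), again with no such difference past the threshold.

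The signalling pathway upstream was read from 38 WNT components and feedback genes, of which 32 could be tested. In sham rats 3 rose and 5 fell after ozone, with a median of -0.13 against 0.01 for all genes. Over all tested genes 14.6% rose and 13.8% fell in sham rats, and 11.4% rose and 9.63% fell in vagotomised rats, so the WNT counts are near that background and are not a result about the list. Tcf7l2, a TCF factor of hepatocytes, fell by 0.68 on the log2 scale (SE 0.14, adjusted p = 0.00103). Another TCF gene, Tcf7l1, named after its values were seen, stood at -0.10 ± 0.13 (adjusted p = 0.613). In vagotomised rats Tcf7l1 was at -0.05 ± 0.13 (adjusted p = 0.816). In sham rats the WNT receptor gene Fzd1 fell by 0.93 (SE 0.20), while Bcl9, a coactivator of beta-catenin, rose by 0.74 ± 0.14 and the receptor gene Fzd6 rose by 0.84 ± 0.20. Ctnnb1, which encodes beta-catenin, fell by 0.26 (SE 0.08, adjusted p = 0.0187), as did the R-spondin gene Rspo3 by 0.49 (SE 0.18, adjusted p = 0.0416) and the cell-cycle gene Ccnd1 by 0.84 (SE 0.23, adjusted p = 0.00956). The remaining rise was that of Dvl3, by 0.39 ± 0.10 (adjusted p = 0.00479). Ctnnb1, Rspo3, Ccnd1 and Dvl3 were named after their values were seen.

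In vagotomised rats 4 of the 32 WNT genes rose and 3 fell, with a median of -0.11. Fzd1 fell by 0.85 (SE 0.20), Tcf7l2 by 0.52 (SE 0.14) and Ctnnb1 by 0.32 (SE 0.08), and Csnk1a1, a kinase that marks beta-catenin for destruction, rose by 0.41 ± 0.10. The other rises were those of Fzd4 by 0.61 ± 0.20, Bcl9 by 0.44 ± 0.14 and Dvl3 by 0.31 ± 0.10, named after their values were seen. Rspo3 was at -0.06 ± 0.18 (adjusted p = 0.87) there. The counts move with scaling, since with equal column totals 2 rose and 7 fell in sham rats and 1 rose and 3 fell in vagotomised rats. That scaling set the median change of all genes in sham rats at -0.09, where it is 0.01 as reported, and counted 33.9% of the calls as rises in place of 51.3%. Without the 4 low 5.8S libraries 3 rose and 5 fell in vagotomised rats. The receptor and target gene Lgr5 and the target Sp5, as well as Tcf7 and Lef1, were below the minimum.

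Vagotomy called none of the 32 WNT genes, with medians of 0.05 in air and 0.06 in ozone, beside 0.00 and -0.01 over all genes. In ozone the smallest p belonged to Ccnd1, at 0.77 ± 0.23 (adjusted p = 0.108), and to Rnf43, which encodes a ligase that removes WNT receptors from the cell surface, at 0.60 ± 0.24 (adjusted p = 0.23). In air they belonged to Porcn, needed for WNT secretion, at 0.52 ± 0.19, and Btrc at 0.16 ± 0.08, both with an adjusted p of 1.

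Among 20 further genes known as pericentral, 2 rose and 0 fell in sham rats, with a median of 0.02, whereas 28.4% of all tested genes passed. Por, the reductase that passes electrons to every microsomal cytochrome P450, rose from a mean of 1608 to 8922 normalised counts, by 2.53 ± 0.22 (adjusted p = 2.46e-08). Lect2, a secreted hepatocyte protein, rose by 0.55 ± 0.10, whereas the calcium-binding Rgn stood at -0.24 ± 0.10 (adjusted p = 0.0731) and Cyp1a1, like Cyp1a2 a gene induced through the aryl hydrocarbon receptor, at 0.56 ± 0.35 (adjusted p = 0.249). In vagotomised rats 2 rose and 3 fell, with a median of -0.13, beside 21.1% of all genes that passed. The counts lie below that background in sham rats and near it in vagotomised rats, and are not a result about the list. Por rose by 1.76 ± 0.22 and Aldh3a2, a fatty aldehyde dehydrogenase, by 0.39 ± 0.09, while Rgn fell by 0.40 (SE 0.10) and the nuclear receptor gene Nr1i3 by 0.71 (SE 0.22). Without the low 5.8S libraries 1 of these genes fell in sham and 1 in vagotomised rats.

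Genes of the opposite, periportal end include those of the urea cycle and of glucose production. Of 18 tested, 10 rose and 1 fell in sham rats (median 0.46), and 7 rose and 3 fell in vagotomised rats (median 0.23). Over all tested genes 14.6% rose and 13.8% fell in sham rats, and 11.4% rose and 9.63% fell in vagotomised rats. The serine dehydratase gene Sds rose by 4.58 ± 0.46 in sham and 3.65 ± 0.46 in vagotomised rats, and the urea cycle genes Arg1 and Asl rose by 1.30 ± 0.18 and 1.16 ± 0.16 in sham and by 1.37 ± 0.18 and 1.24 ± 0.16 in vagotomised rats. Hal, the histidase gene, rose by 0.89 ± 0.13 and 0.79 ± 0.13. Cdh1 was the gene that fell in sham rats, by 0.57 (SE 0.11). In vagotomised rats Cdh1 fell by 0.64 (SE 0.11), the glucose production gene Pck1 by 0.66 (SE 0.19) and Pigr by 0.28 (SE 0.09). The genes that fell were named after their values were seen. The lists were not tested against each other.

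The genes that make, move and use glutamine, glutamate and ammonia, apart from the 8, formed another list. Of 18 tested 8 rose and 2 fell in sham rats (median 0.37), and 7 rose and 1 fell in vagotomised rats (median 0.22). The shares of all tested genes were 14.6% risen and 13.8% fallen in sham rats, and 11.4% risen and 9.63% fallen in vagotomised rats. Over the alternatives the falls ranged from 1 to 3 in sham and from 0 to 1 in vagotomised rats, and the rises in vagotomised rats were 5 without the low 5.8S libraries and 4 without vagotomised ozone library 3. Got1, the cytosolic aspartate aminotransferase, rose by 2.79 ± 0.21 and 2.63 ± 0.21, the neutral amino acid transporter gene Slc1a4 by 2.21 ± 0.25 and 1.33 ± 0.25, Slc38a4, another amino acid carrier, by 1.17 ± 0.17 and 1.25 ± 0.17, and the ornithine decarboxylase gene Odc1 by 0.74 ± 0.10 and 0.81 ± 0.10. Gls2, the liver glutaminase, stands in both this and the periportal list and was named after its values were seen. It rose by 0.57 ± 0.19 and 0.61 ± 0.19. Vagotomy changed 1 gene of these lists, Slc1a4 in ozone, which fell by 1.01 (SE 0.25, adjusted p = 0.0398). That call was lost in 10 of 24 alternatives, among them leaving out the low 5.8S libraries (adjusted p = 0.055) and the replicate block (0.0513).

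**Figure D3:**
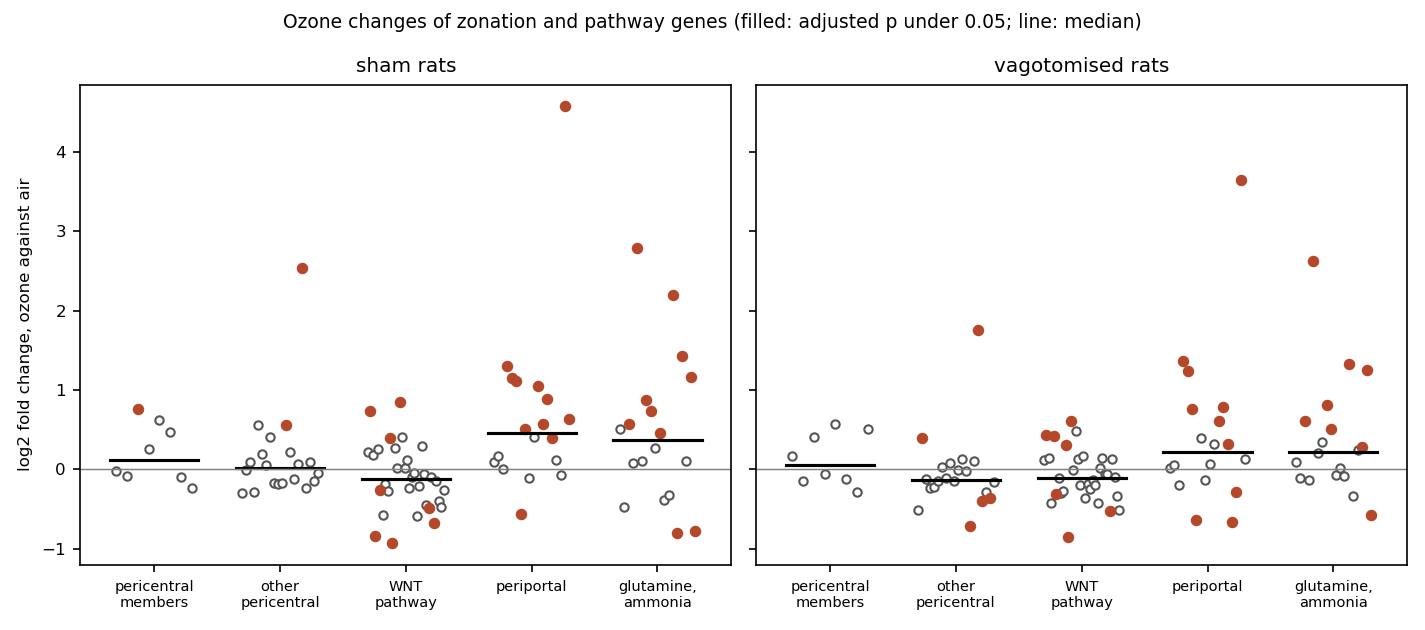
Log2 fold changes of ozone against air (vertical axis) for each tested gene of 5 lists in sham and vagotomised rats, with the list medians as lines; filled points passed an adjusted p of 0.05. The highest points are Sds at 4.58 and 3.65 in the periportal list, and the 8 pericentral genes hold 1 filled point, Cyp2e1 at 0.76 in sham rats.

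The 8 genes were also compared with each other for variation between rats of a group. After the group means were removed, 28 pairs were compared over the 22 libraries with permutation within groups, and 0 pairs had an adjusted p under 0.05. With so few libraries this does not show that the genes varied independently. The highest Pearson correlation joined Oat and Cyp2e1 (r = 0.70, Spearman rho = 0.58, permutation adjusted p = 0.095 and 0.17), and without the 2 libraries farthest from the median of Oat it was 0.52. By group it was 0.92 in sham air, 0.36 in vagotomised air, 0.67 in sham ozone and -0.18 in vagotomised ozone, on 5 or 6 libraries each. Glul and Rhbg followed (r = 0.60, rho = 0.55, permutation adjusted p = 0.095 and 0.17), at 0.42 without the 2 libraries farthest from the median of Glul. Without the 4 low 5.8S libraries r was 0.80 for Oat and Cyp2e1, 0.32 for Glul and Rhbg, and 0.85 for Cyp2e1 and Rhbg, which had 0.45 over all 22 and was then the highest of these 3 pairs. In sham air, libraries 1 and 2 were the highest for Cyp2e1, Oat, Rhbg and Glul, and library 5 was the lowest for all 4.

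**Figure D4:**
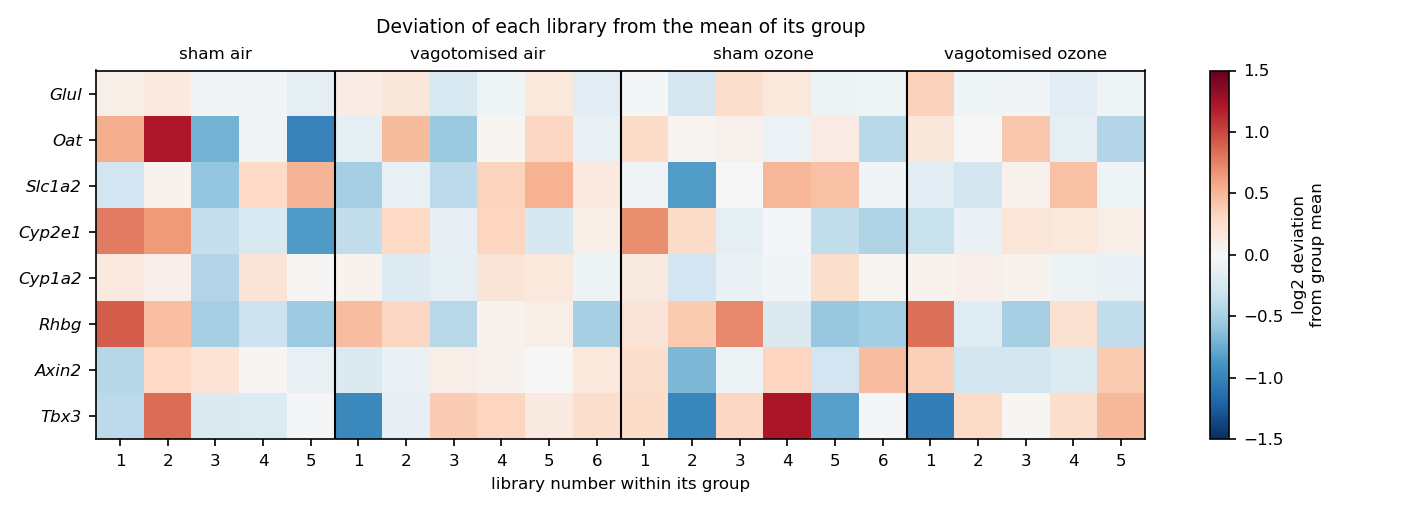
Log2 deviation of each library from the mean of its group (colour) for the 8 pericentral genes (rows) in the 22 libraries (columns, numbered within groups). Sham air libraries 1 and 2 are red for Oat, Cyp2e1 and Rhbg. Tbx3 is deepest blue in library 1 of both vagotomised groups (-0.97 in air, -1.04 in ozone) and in sham ozone library 2 (-0.97).

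For each gene the transcripts whose deviations from the group mean ran most closely alongside were taken from 9648 genes with a mean of at least 50, with Pearson's r over the 22 libraries as a description. For Oat these included Gls2 (0.91) and Bhmt (0.88), a homocysteine methyltransferase gene. For Rhbg they were Abat (0.92), which encodes GABA transaminase, Mccc2 (0.92), of leucine breakdown, and Ndrg2 (0.88). For Cyp2e1 they were Hsd17b11 (0.91), Cbr4 (0.84) and Gcdh (0.83), and for Glul Bag6 (0.91), Pank4 (0.88) and Pigo (0.86).

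For Cyp1a2 the closest were Fmo5 (0.78), a flavin monooxygenase gene, Plpp3 (0.73) and Eps8l2 (0.69), and for Slc1a2 Nhlrc2 (0.80), Spice1 (0.79) and Tnk2 (0.77). Axin2 ran with Gpam (0.77), Lig3 (0.75) and Srgap2 (0.75), and Tbx3 with Dnmbp (0.86), Lrig3 (0.85) and Zfp280b (0.83). Both genes of a pair share the depth, scaling and RNA quality of each library, and the 4 low 5.8S libraries are among the 22.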

How the data were processed

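The table the authors deposited gives signal values, namely read counts per gene divided by a size factor of each library. The submitters' processing notes name STAR, Partek, DESeq, DESeq2 and rat build rn6; versions and settings are not given in the sources used here. All values were whole multiples of 1 step per column (tolerance 0.001, 100%), which gave back the reads. All 22 columns were used. Genes are listed by symbol, without rn6 coordinates.

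Values were analysed as log2(count + 1) with limma 3.58.1 in R 4.3.3, for genes with a mean of at least 10. A single model held the 4 group means, fitted to all 22 libraries, and variances were moderated by empirical Bayes with an intensity trend. Tests were two-sided. Benjamini-Hochberg adjustment ran over 12424 genes, with a threshold of 0.05. Fold changes on this scale understate the change of low genes. Labels mention no batch.

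The 8 genes, the gene lists, the comparisons and the alternatives were chosen with earlier results of these data known. Named were the 8 genes and up to 4 members of each list with the smallest p, and exceptions are marked. Some genes are not reported here. Alternatives covered pseudocounts of 0.5 and 5, no minimum or a minimum of 50, 3 other scalings, a replicate block, only the groups compared, 5.8S ribosomal RNA (4 libraries left out, or a covariate), single libraries left out, and edgeR 4.0.16 and DESeq2 1.42.0 on recovered reads. Marker lists of 8 cell types were summed per library. The procedure was tested on simulated data. Correlations used 100000 permutations within groups. Plots were made in Python 3.11.15 using matplotlib 3.10.9.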

Additional observations from a re-analysis of the deposited data

Results flagged for a closer look

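In 2 of 32 combinations of gene and group, 1 library lay far from the rest, and chance gives about 1 in 20. Glul in vagotomised ozone library 1 was at 10611 normalised counts, where the nearest library had 8110 (gap over range 0.78), and this library had the lowest 5.8S ribosomal RNA count of all, 38.1. Tbx3 in sham air library 2 was at 344.01, where the nearest library had 189.88 (gap over range 0.78), and this library was also the highest of all for Oat.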

How the results depend on the processing

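Of 1608 values of the 8 genes under other settings, 1596 kept their side of the threshold, 7 lost a call and 5 gained one, and none that was called changed sign, while 62 without a call did. The number of the 8 called for ozone in sham rats, 1 as reported, was 0 with quantile normalisation or only the groups compared, 2 with the 5.8S covariate, and 0 to 2 when 1 library was left out. In vagotomised rats it was 1 instead of 0 with only the groups compared, and for the averaged ozone change 1 instead of 2 with edgeR.

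Over all genes, the 166 calls for vagotomy in ozone became 93 with quantile normalisation, 14 with only the groups compared, 272 without the 4 low 5.8S libraries, 322 with the 5.8S covariate, 366.0 with DESeq2, and 19 to 217 when 1 library was left out. The 0 calls for the difference became 20 with DESeq2 and 0 to 1 without 1 library. The 14 calls for averaged vagotomy became 37 without a minimum, 3 with a minimum of 50, 4 with the replicate block, 25 without the low 5.8S libraries, 36 with edgeR, 114 with DESeq2, and 11 to 35 without 1 library. The cause was not tested.

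Replicate numbers only count rats. Same-numbered libraries had correlations of their deviations from -0.32 to 0.61 and did not pair, and with the replicate block 3306 and 2490 genes were called for ozone in sham and vagotomised rats (3526 and 2619 without it), with no call among the 8 changed, while 1 WNT gene instead of 4 rose in vagotomised rats. Depth limits Slc1a2, Axin2, Tbx3 and Rhbg most, at 42 to 380 reads per library.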
